A study of Mus musculus with 12 samples.

Results

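Voltage-gated potassium channels outside the Kv1 subfamily were examined in 12 brain RNA-seq libraries from 5xFAD mice, a transgenic line that deposits amyloid in the brain, its human transgenes driven by the neuronal Thy1 promoter. The members were the rows of the count table whose gene name begins with Kcnb, Kcnc, Kcnd, Kcnf, Kcng, Kcnh, Kcnq, Kcns or Kcnv followed by a number, and whose counts over the 12 libraries total 30 or more. All 32 such rows of the 21643 in the table reached that total, from 81 counts for Kcnv2 and 126 for Kcnh8 upward, so no gene lay outside the limit. Per the labels, every mouse had the 5xFAD genotype with its strain not specified. The mice fell into 4 groups of 3, namely Control, PBS, the Kv1.3-blocking peptide ShK-223 and the Kv1.3-blocking small molecule PAP-1. Each library came from 1 mouse and the tissue is given as whole brain. The sources used here give no age, dose, route or duration, nor how the Control mice differed from the PBS mice, and none of the 4 groups is labelled as lacking the transgenes.

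Voltage-gated potassium channels open when a neuron depolarizes and let potassium out, which ends the action potential, sets the interval to the next one and limits how often a cell can fire. Kv3 channels (Kcnc genes) open and close fast and let cells such as cerebellar granule cells, Purkinje cells and fast-spiking interneurons fire at high rates. Kv4 channels (Kcnd) carry the transient A-type current of dendrites, Kv2 channels (Kcnb) the slow delayed rectifier of the cell body, and Kv7 channels (Kcnq) the M-current that holds neurons near rest. The Kcnh genes encode the ether-a-go-go channels Kv10, Kv11 and Kv12. Kcnf, Kcng, Kcns and Kcnv genes encode silent subunits, which form no channel alone but join Kv2 subunits and change how they gate.

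Libraries of the same group differed in brain region markers. The summed level of 16 cerebellum genes, in CPM (counts scaled to the size of the library), was 10500, 11500 and 10600 CPM in PBS 1, 2 and 3, 10000 CPM in Control 2 and 2370 CPM in PAP-1 1, and from 727 to 1300 CPM in the other 7 libraries. The GABA-A receptor subunit Gabra6, which defines cerebellar granule cells, stood at 332 to 452 CPM in PBS and Control 2, at 58.4 CPM in PAP-1 1 and at 0.0560 to 1.23 CPM elsewhere. Hippocampus and cortex markers (10 genes) summed to 555 to 971 CPM in PBS and Control 2 and to 1510 to 2170 CPM in the other 8 libraries. Striatum markers (10 genes) ran from 215 CPM in PAP-1 2 to 2180 CPM in Control 1. Markers of neurons in general (5 genes) stayed between 4430 and 6720 CPM in all 12. In bulk tissue, fewer cells of a type and less RNA per cell cannot be told apart. In the text that follows, 3 values in a row are those of libraries 1, 2 and 3 of a group, in CPM scaled by the trimmed mean of M-values (TMM). Kcna3, the gene of the blocked channel Kv1.3, is no member, and stood at 2.15 to 4.38 CPM in all 12 libraries.

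Levels were summed per kilobase of exon, so that genes of different length can be added. The sum of the 32 channels was 462 to 493 CPM per kb in PBS and Control 2. In the other 8 libraries it was 319 to 424, and the make-up differed as well. Kv3 genes gave 249, 304 and 273 CPM per kb in PBS and 240 in Control 2, against 71.2 and 76.1 in Control 1 and 3, 85.2 to 105 with ShK-223 and 90.3 to 99.8 with PAP-1. Kv7 genes gave 30.2 to 38.0 in PBS and 40.3 in Control 2, and 53.8 to 79.7 in the other 8 libraries. Silent subunits together moved less, from 43.9 in PBS 2 to 82.4 in PAP-1 3.

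**Figure D1:**
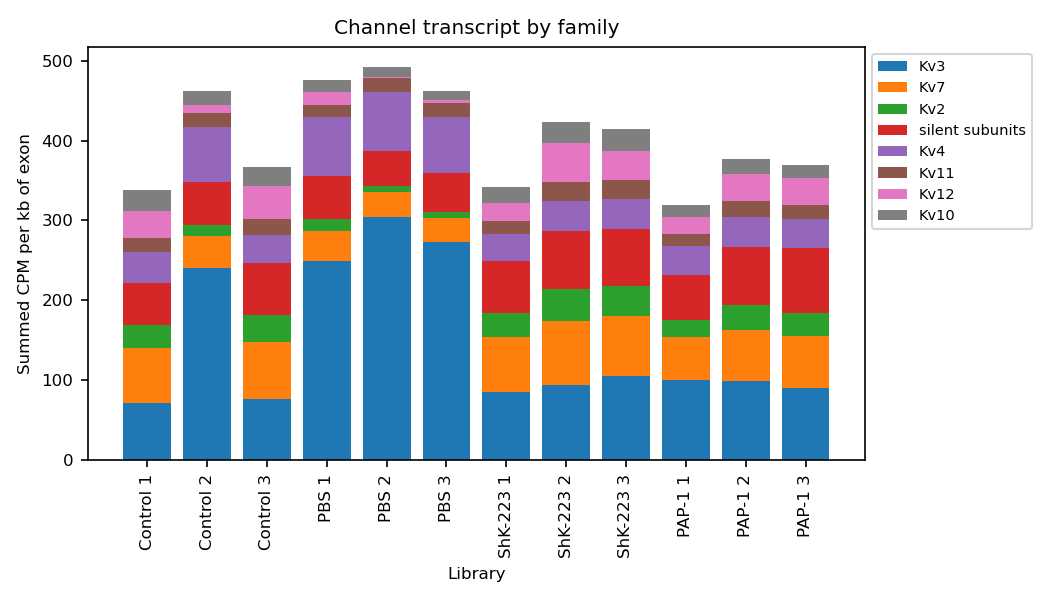
Summed level of the 32 channel genes in each of the 12 libraries, in CPM per kb of exon, stacked by channel family. The Kv3 segment reaches 240 to 304 CPM per kb in PBS 1, 2 and 3 and Control 2, and 71.2 to 105 in the other 8 libraries.

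Per kilobase, Kcnc1 stood at 87.1 ± 7.34 CPM per kb (SD, n = 3) in PBS, above Kcnd2 at 56.7 ± 2.16, Kcng4 at 37.6 ± 3.22 and Kcnc4 at 24.2 ± 1.41, and the mean ± SD ranges of these 4 did not overlap. With ShK-223, Kcnh3 stood at 29.1 ± 8.73, Kcnc1 at 27.9 ± 3.78 and Kcnc4 at 23.7 ± 4.95. Kcnf1 at 23.5 ± 0.877 and Kcnd2 at 22.8 ± 4.39 came next, and the ranges of neighbours overlapped. With PAP-1, Kcnc4 at 29.4 ± 2.11, Kcnc1 at 27.7 ± 3.63, Kcnf1 at 26.3 ± 7.68 and Kcnh3 at 25.0 ± 5.59 overlapped. Kcnd2 at 19.8 ± 1.99 overlapped Kcnf1 and Kcnh3. The lowest 4 in every group were Kcng3, Kcnq1, Kcnh8 and Kcnv2, at most 0.712 CPM per kb on average.

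**Figure D2:**
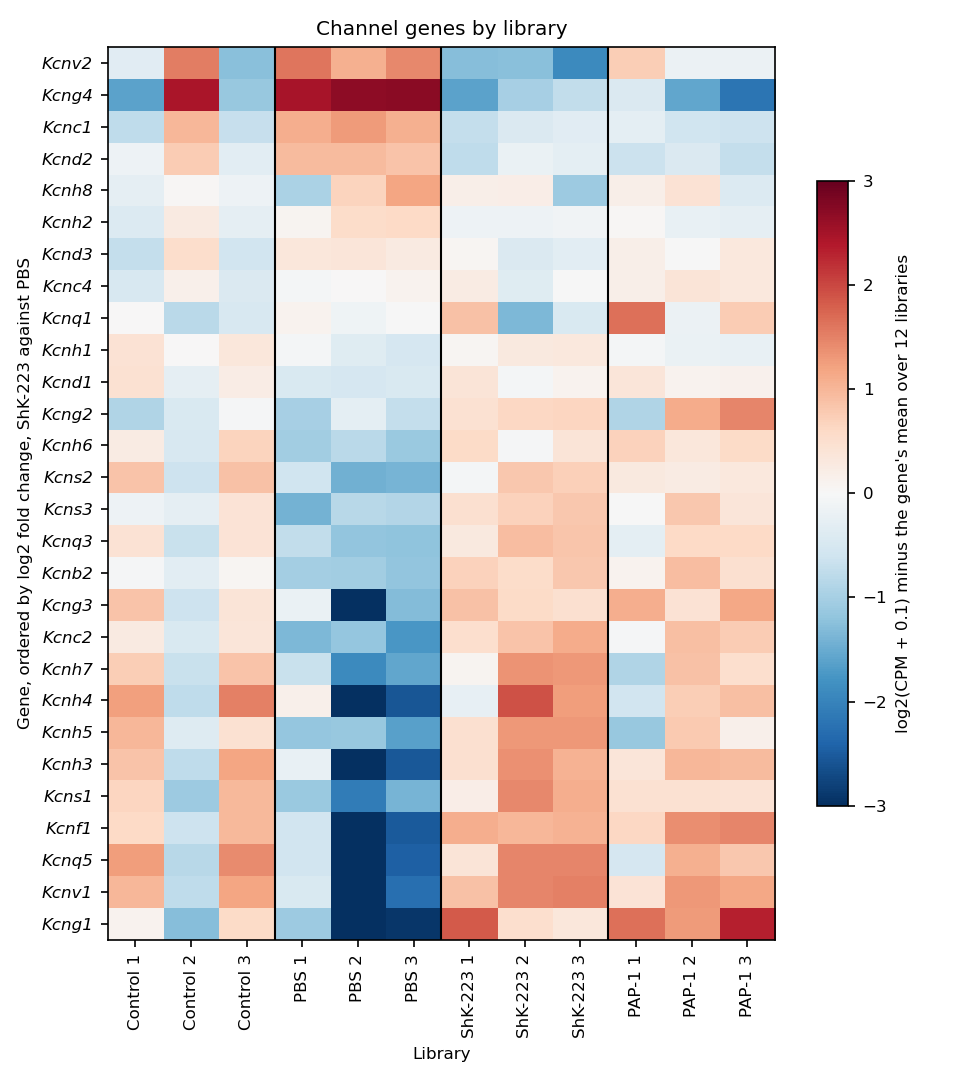
Level of each of 28 channel genes in each library, as log2(CPM + 0.1) minus the gene's mean over the 12 libraries (colour, limited to -3 to 3), with genes ordered by their fold change between ShK-223 and PBS. Control 2 has the colours of the PBS libraries in the upper rows, from Kcnv2 to Kcnd2, and PBS 2 and PBS 3 are lowest in the rows near the bottom, such as Kcnf1, Kcnq5, Kcnv1 and Kcng1.

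ShK-223 and PAP-1 were each compared with PBS to ask what blocking Kv1.3 does to brain expression. Most channel genes differed from PBS in both comparisons: Kcnb2, Kcnc2, Kcnq3, Kcnq5 and most silent subunits were higher with either blocker, while Kcnc1, Kcnd2, Kcnh2 and Kcng4 were lower. With ShK-223, 24 of 32 genes passed (edgeR, adjusted p under 0.05), 18 higher and 6 lower, where 39.1% of all 15061 genes tested passed, 18.8% higher and 20.3% lower. With PAP-1, 25 of 32 passed, 19 higher and 6 lower, where 43.7% of all genes passed, 21.1% higher and 22.6% lower. Without PBS 3, 15 passed with PAP-1, where 29.8% of all genes did. The median log2 fold change of the 32 was 1.48 and 1.41, and that of all genes -0.01 and -0.01. The median size of change without regard to sign was 1.76 and 1.54 for the channels and 0.39 and 0.42 for all genes. These comparisons share the 3 PBS libraries, so their values are given side by side and their likeness is not a result. At the same threshold, all 16 cerebellum markers passed as lower with ShK-223 and 8 with PAP-1. The median log2 fold change of these 16 was -5.37 and -3.41. Of 10 hippocampus and cortex markers 8 and 7 passed as higher and 1 as lower in each comparison. Of 8 microglia markers 7 and 5 passed as higher and 0 as lower. In the 1 labelled batch that holds both groups of a comparison, all 24 and all 25 called genes had the direction of the call. Those libraries also made the calls, and the groups did not overlap for most called genes (24 and 22, not counted over all genes). The direction within a batch was thus largely fixed beforehand and is no separate test of batch. With the batch named in the labels as an added term, 0 and 8 of the 32 genes passed, where 0.0266% and 18.3% of all genes did. All called genes still kept their direction, with wider errors for those given here. With ShK-223, Kcng4 was then at -3.01 (SE 1.01) where it had been at -3.70 (SE 0.96). Kcnb2 was then at 1.84 (SE 0.21, adjusted p = 0.0561) where it had been at 1.78 (SE 0.19), and Kcnh5 at 2.39 (SE 0.62, adjusted p = 0.0696) where it had been at 2.39 (SE 0.48). With the cerebellar content of each library as an added term, 0 and 0 passed, where 0% of all genes did in both comparisons. In that fit 7 and 12 of the called genes changed sign, and Kcnb2 was at 1.27 (SE 0.33) and 1.15 (SE 0.32). Cerebellar content did not overlap between PBS and the blocker groups, so blocker and cerebellar content cannot be told apart here.

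**Figure D3:**
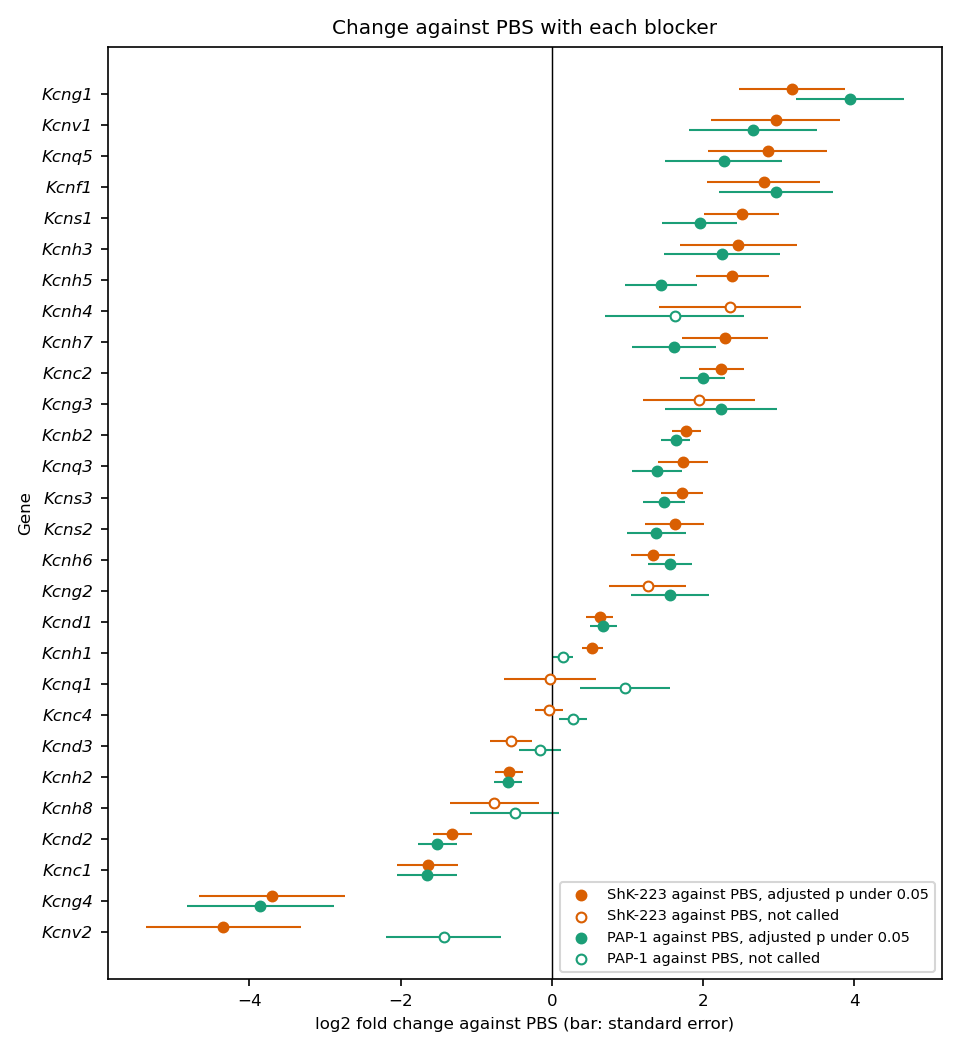
log2 fold change of each of 28 channel genes against PBS with ShK-223 (orange) and PAP-1 (green), with standard errors as bars, n = 3 against 3. Filled points passed the edgeR test at an adjusted p of 0.05, 21 with each blocker, and the genes run from Kcng1, highest against PBS, to Kcnv2, lowest.

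Among Kv3 genes, Kcnc1 was lower and Kcnc2 higher with both blockers than with PBS, and Kcnc4 did not pass in either. Kcnc1 (Kv3.1, GRCm38 chromosome 7, 46396497 to 46438704), a fast channel of granule cells and fast-spiking interneurons, was higher in PBS and Control 2 than in the other 8 libraries. The levels of Kcnc1 were 218, 744 and 229.8 CPM in Control, 787, 904 and 781 CPM in PBS, 224, 275 and 293 CPM with ShK-223 and 302, 245 and 239.7 CPM with PAP-1. Its log2 fold change was -1.64 (SE 0.40, adjusted p = 0.0118) with ShK-223 and -1.65 (SE 0.40, adjusted p = 0.0101) with PAP-1. Kcnc2, or Kv3.2, is a Kv3 channel of forebrain interneurons, and it was lowest in PBS. In Control Kcnc2 stood at 68.7, 41.3 and 73.3 CPM, with 22.1, 25.5 and 16.9 CPM in PBS, and at 80.3, 103 and 122 CPM with ShK-223 and 54.9, 105 and 96.5 CPM with PAP-1. It rose by 2.24 (SE 0.30, adjusted p = 0.00370) with ShK-223 and 2.00 (SE 0.30, adjusted p = 0.00225) with PAP-1. Kcnc4, the inactivating Kv3.4, had -0.03 (SE 0.18, adjusted p = 0.900) and 0.28 (SE 0.18, adjusted p = 0.238). Kcnc2 made up 0.866 to 1.25% of Kv3 transcript per kb in PBS, 2.41% in Control 2 and 7.71 to 16.3% elsewhere. The calls of Kcnc1 and Kcnc2 held in each of the 6 fits of a comparison that left out 1 of its libraries.

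Of the Kv4 genes, Kcnd2 was lower and Kcnd1 higher with both blockers. Kcnd2 encodes Kv4.2, an A-type channel of granule cells and pyramidal dendrites (chromosome 6, 21215503 to 21729805). Control libraries held 139, 263 and 123 CPM of Kcnd2 and PBS libraries 298, 299 and 279 CPM, against 91.6, 134 and 127 CPM with ShK-223 and 99.2, 114 and 93.9 CPM with PAP-1. The PBS libraries lay within a narrow range above all blocker libraries, with -1.32 (SE 0.26, adjusted p = 0.00668) for ShK-223 and -1.51 (SE 0.26, adjusted p = 0.00310) for PAP-1. Kcnd1 (Kv4.1) moved less, from 12.4, 12 and 12.3 CPM in PBS to 22.4, 16.2 and 18.3 CPM with ShK-223 and 21.8, 18.2 and 18.8 CPM with PAP-1, with 0.64 (SE 0.18, adjusted p = 0.0197) and 0.68 (SE 0.18, adjusted p = 0.0137). The ShK-223 call of Kcnd1 was lost without PBS 2, PBS 3 or ShK-223 1 (adjusted p up to 0.0662). Kcnd3 (Kv4.3) had -0.54 (SE 0.28, adjusted p = 0.147) and -0.16 (SE 0.28, adjusted p = 0.675) and did not pass, although its ShK-223 libraries (79.9 to 113 CPM) all lay under its PBS libraries (130.4 to 139 CPM).

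Kcnb2, which encodes the delayed rectifier Kv2.2 (chromosome 1, 15287254 to 15723750), rose with both blockers and had the smallest adjusted p of the 32 genes in both comparisons. In Control Kcnb2 stood at 23.5, 19.2 and 25 CPM, with 11.7, 11.5 and 10.4 CPM in PBS, and at 38.8, 35 and 41.6 CPM with ShK-223 and 25.6, 45.4 and 33.5 CPM with PAP-1. It rose by 1.78 (SE 0.19, adjusted p = 0.00367) and 1.64 (SE 0.19, adjusted p = 0.00197), and its 3 PBS libraries lay between 10.4 and 11.7 CPM. Every blocker library lay above every PBS library, and Kcnb2 was called in every fit without 1 library.

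The silent subunits that join Kv2 gave both the largest rises and the largest falls. With ShK-223, 6 of 10 rose, 2 fell and 2 did not pass, and with PAP-1 8 rose, 1 fell and 1 did not pass. Kcng1 (Kv6.1, chromosome 2, 168260117 to 168281736) had the largest rise in both. Control libraries held 17.2, 6.51 and 24 CPM of Kcng1 and PBS libraries 7.47, 1.51 and 2.03 CPM, against 57.6, 22.6 and 20.4 CPM with ShK-223 and 50.6, 39.1 and 81.2 CPM with PAP-1. Its log2 fold change was 3.18 (SE 0.70, adjusted p = 0.00906) with ShK-223 and 3.94 (SE 0.72, adjusted p = 0.00380) with PAP-1. Within ShK-223, library 1 stood well above 2 and 3, which were near Control 1 and 3. The Kcng1 value was 4.23 with ShK-223 and 4.99 with PAP-1 without PBS 1, and 2.56 without ShK-223 1. Kcnf1, or Kv5.1 (chromosome 12, 17172100 to 17176888), was next with PAP-1. The levels of Kcnf1 were 83, 35.2 and 108 CPM in Control, 36.4, 2.34 and 9.41 CPM in PBS, 117, 108 and 112 CPM with ShK-223 and 83.5, 143 and 151 CPM with PAP-1. The PBS libraries differed 15.5-fold among themselves, with PBS 1 at the level of Control 2. Kcnf1 rose by 2.80 (SE 0.75, adjusted p = 0.0161) and 2.96 (SE 0.75, adjusted p = 0.0118), the ShK-223 call being lost without PBS 3 (adjusted p = 0.0605). Without PBS 1 the values were 4.24 and 4.40. Kcnv1 (Kv8.1, chromosome 15, 45106284 to 45114920) had a wider spread still. In Control Kcnv1 stood at 68.1, 20.2 and 77.7 CPM, with 24.8, 0.689 and 7.07 CPM in PBS, and at 63, 94.2 and 97.6 CPM with ShK-223 and 45.3, 84.9 and 76 CPM with PAP-1. PBS 1 was 35.9-fold above PBS 2, and yet all blocker libraries exceeded PBS 1. The log2 fold change was 2.96 (SE 0.85, adjusted p = 0.0214) with ShK-223 and 2.66 (SE 0.84, adjusted p = 0.0281) with PAP-1. Those calls were lost without PBS 3 in both, without ShK-223 3, and without PAP-1 2 or 3 (adjusted p up to 0.0763 and 0.0922). Without PBS 1 the values were larger, at 4.43 and 4.12.

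Kcns1 (Kv9.1) also rose in both comparisons. Control libraries held 16.9, 5 and 21.1 CPM of Kcns1 and PBS libraries 4.9, 2.41 and 4 CPM, against 12.4, 29.3 and 23 CPM with ShK-223 and 14.8, 14.7 and 14.5 CPM with PAP-1. It gave 2.51 (SE 0.50, adjusted p = 0.00716) with ShK-223 and 1.96 (SE 0.49, adjusted p = 0.0117) with PAP-1, and the calls held in every fit without 1 library. Kcns2 (Kv9.2) rose by 1.63 (SE 0.39, adjusted p = 0.0113) and 1.38 (SE 0.39, adjusted p = 0.0175), the second being lost without PBS 2 or PBS 3 (adjusted p up to 0.0686). Kcns3 (Kv9.3) rose by 1.72 (SE 0.28, adjusted p = 0.00468) and 1.49 (SE 0.28, adjusted p = 0.00425). Kcng3 (Kv6.3), a sparse transcript, was called with PAP-1 alone. The levels of Kcng3 were 2.27, 0.756 and 1.62 CPM in Control, 1.04, 0 and 0.43 CPM in PBS, 2.29, 1.85 and 1.71 CPM with ShK-223 and 2.69, 1.66 and 2.82 CPM with PAP-1. PBS 2 held 0 counts of it, and its values were 1.95 (SE 0.74, adjusted p = 0.0573) with ShK-223 and 2.24 (SE 0.74, adjusted p = 0.0323) with PAP-1, the latter lost without PBS 3, PAP-1 1 or PAP-1 3 (adjusted p up to 0.0962). Without PBS 1 they were 3.09 and 3.38. Kcng2 (Kv6.2) was likewise called with PAP-1 (1.56, SE 0.51, adjusted p = 0.0310) and not with ShK-223 (1.27, SE 0.51, adjusted p = 0.0694). Its PAP-1 values, 1.18, 5.09 and 6.45 CPM, overlapped the 1.1, 1.86 and 1.35 CPM of PBS, and 5 of 6 fits without 1 library, those without PBS 1, 2 or 3 or PAP-1 2 or 3, lost the call (adjusted p up to 0.122). For Kcng2 and Kcng3 the difference between blockers is the ShK-223 against PAP-1 test given later.

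Kcng4 and Kcnv2 went the other way from the rest of the silent subunits. Kcng4 (Kv6.4, chromosome 8, 119623854 to 119635680) was highest in the 4 libraries with the most cerebellum marker transcript. In Control Kcng4 stood at 7.52, 126 and 10.4 CPM, with 129, 149 and 151 CPM in PBS, and at 7.59, 11.5 and 13.9 CPM with ShK-223 and 17, 7.77 and 5.01 CPM with PAP-1. Its log2 fold change was -3.70 (SE 0.96, adjusted p = 0.0149) with ShK-223 and -3.85 (SE 0.97, adjusted p = 0.0118) with PAP-1. PAP-1 1, which held some cerebellar transcript, was the highest library outside PBS and Control 2, and without it the PAP-1 value was -4.48. The ShK-223 call was lost without ShK-223 1 (adjusted p = 0.0511), and DESeq2 gave Kcng4 no adjusted p. Kcnv2 (Kv8.2), best known from photoreceptors, had 42 counts in the 3 PBS libraries (1.04, 0.689 and 0.922 CPM) and 2 in the 3 ShK-223 libraries (0.0546, 0.056 and 0 CPM). Per total count that is a ratio of 25.1 with a 95% exact interval from 6.53 to 214, which covers counting error only. The edgeR adjusted p was 0.0109 with ShK-223 and 0.150 with PAP-1, where the libraries held 0.526, 0.229 and 0.23 CPM.

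**Figure D4:**
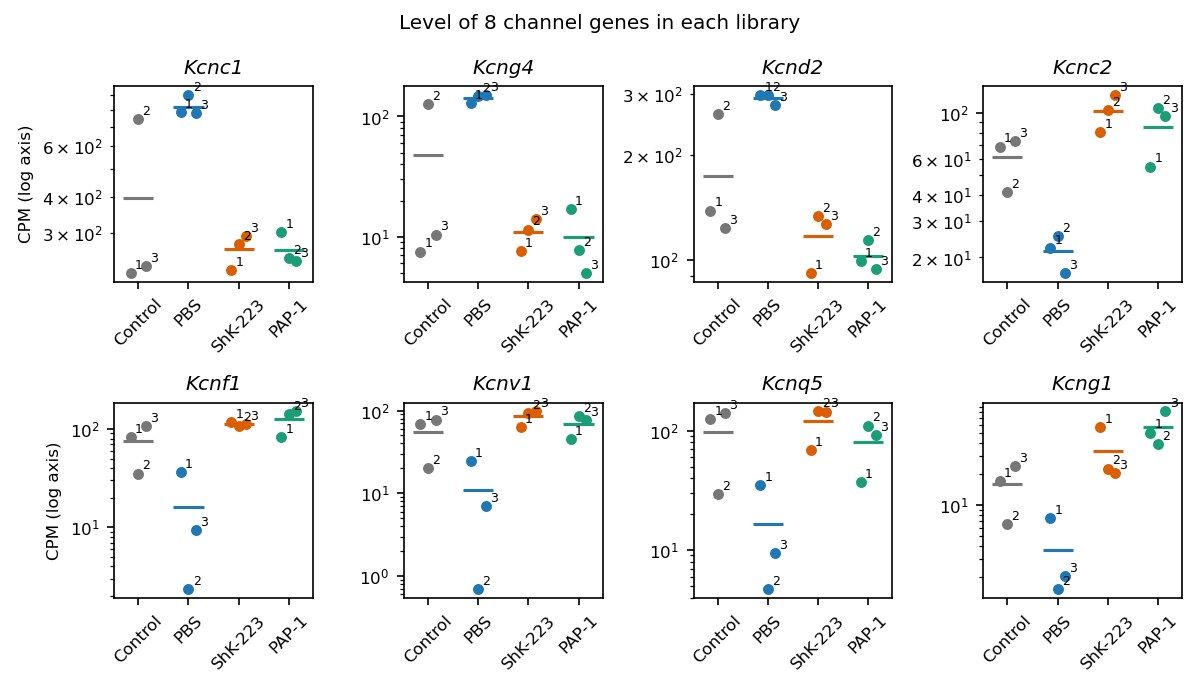
CPM (log axis) of 8 channel genes in each library, numbered 1 to 3 within its group, with the group mean as a line. Kcnc1, Kcng4 and Kcnd2 are high in all PBS libraries and Control 2, Kcnc2 is lowest in PBS, and Kcnf1, Kcnv1, Kcnq5 and Kcng1 are lowest in PBS 2 and PBS 3.

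Promoter sequences are shown for 4 of these genes that moved in opposite directions between the same libraries. They are the largest falls (Kcng4, Kcnc1) and rises (Kcnf1, Kcns1) with ShK-223 among genes called the same way with both blockers that have a single entry in the RefSeq promoter table (GRCm38). Each runs from 250 bases before to 50 bases after the annotated start, 5′ to 3′ on the gene's strand, with capitals for the GC box GGGCGG on either strand.
Kcng4, chr8:119635631-119635930, minus strand: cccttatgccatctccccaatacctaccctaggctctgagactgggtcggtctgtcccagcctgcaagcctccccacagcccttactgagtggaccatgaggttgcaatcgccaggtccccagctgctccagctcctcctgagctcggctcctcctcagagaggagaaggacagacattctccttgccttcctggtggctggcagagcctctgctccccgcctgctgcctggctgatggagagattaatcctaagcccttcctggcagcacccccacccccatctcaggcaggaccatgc
Kcnc1, chr7:46396218-46396517, plus strand: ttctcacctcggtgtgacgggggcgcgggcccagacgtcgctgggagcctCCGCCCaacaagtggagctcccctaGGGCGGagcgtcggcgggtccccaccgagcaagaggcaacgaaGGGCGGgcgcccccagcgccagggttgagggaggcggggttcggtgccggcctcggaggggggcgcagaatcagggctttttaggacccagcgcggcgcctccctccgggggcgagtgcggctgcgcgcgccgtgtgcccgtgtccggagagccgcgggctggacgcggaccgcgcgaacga
Kcnf1, chr12:17176839-17177138, minus strand: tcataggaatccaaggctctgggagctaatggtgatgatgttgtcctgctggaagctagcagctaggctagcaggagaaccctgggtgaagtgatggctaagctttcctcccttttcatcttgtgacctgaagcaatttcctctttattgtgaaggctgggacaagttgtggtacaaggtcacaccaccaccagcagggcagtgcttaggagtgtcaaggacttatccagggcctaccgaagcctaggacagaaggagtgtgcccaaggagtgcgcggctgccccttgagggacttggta
Kcns1, chr2:164171064-164171363, minus strand: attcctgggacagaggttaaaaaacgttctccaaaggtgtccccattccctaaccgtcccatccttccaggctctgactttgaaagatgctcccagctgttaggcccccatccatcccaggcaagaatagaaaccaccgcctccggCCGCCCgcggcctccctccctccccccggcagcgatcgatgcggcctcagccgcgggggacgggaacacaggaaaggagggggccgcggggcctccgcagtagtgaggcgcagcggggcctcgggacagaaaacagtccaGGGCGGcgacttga
Kcnc1 held 3 GC boxes in 74.7% G and C, Kcns1 held 2 in 64.0%, and Kcng4 (61.3%) and Kcnf1 (53.0%) held 0. Of 32 genes 18 had an entry, with 23 starts in all, of which 15 held a GC box (65.2%), against 35.7% of the 32851 windows in the table. The TATA box TATAAA and the cyclic AMP response element TGACGTCA, searched on both strands without regard to overlap with the GC box, were in 0 of 23 windows, against 13.6% and 1.79% of all.

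Among Kv7 genes Kcnq3 and Kcnq5 rose with both blockers. Kcnq3 encodes an M-channel subunit of forebrain neurons (chromosome 15, 65986387 to 66286642). The levels of Kcnq3 were 193, 89.9 and 191 CPM in Control, 86.2, 63.4 and 61.7 CPM in PBS, 175, 273 and 257 CPM with ShK-223 and 118, 219 and 216 CPM with PAP-1. Its log2 fold change was 1.74 (SE 0.33, adjusted p = 0.00632) with ShK-223 and 1.39 (SE 0.33, adjusted p = 0.00927) with PAP-1. Kcnq5, which also contributes to the M-current (chromosome 1, 21398403 to 21961942), changed more. In Control Kcnq5 stood at 125, 29.4 and 139.6 CPM, with 35.1, 4.68 and 9.47 CPM in PBS, and at 68.9, 145 and 144 CPM with ShK-223 and 36.8, 110.1 and 91.5 CPM with PAP-1. Within each blocker group library 1 was the lowest, and PBS 1 came close to PAP-1 1. Kcnq5 rose by 2.86 (SE 0.79, adjusted p = 0.0184) and 2.27 (SE 0.77, adjusted p = 0.0364), but without PBS 2 or PBS 3 neither call remained, nor the second without PAP-1 2 or PAP-1 3 (adjusted p up to 0.0673 and 0.114). Without PBS 1 the values of Kcnq5 were 4.07 and 3.48. Kcnq1, which carries a slow delayed rectifier current in the heart, did not pass and was at most 4.27 CPM in any library. Reads of its antisense gene Kcnq1ot1 may be among its counts.

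Of 8 Kcnh genes, 5 rose and 1 fell with ShK-223, and 4 rose and 1 fell with PAP-1. Kcnh3 (Kv12.2, chromosome 15, 99224861 to 99242817), a channel of hippocampal and cortical excitatory cells, had the largest called rise of the Kcnh genes in both comparisons. The levels of Kcnh3 were 151, 48.9 and 187 CPM in Control, 70.5, 6.2 and 14.1 CPM in PBS, 116, 216 and 171 CPM with ShK-223 and 107, 164 and 160.2 CPM with PAP-1. It rose by 2.47 (SE 0.77, adjusted p = 0.0291) and 2.25 (SE 0.77, adjusted p = 0.0364). In each comparison the call was lost without PBS 2, PBS 3 or library 2 or 3 of the blocker group (adjusted p up to 0.0953 and 0.114). Without PBS 1 it rose by 4.04 and 3.82. Its relative Kcnh4 (Kv12.3) did not pass, at 2.36 (SE 0.93, adjusted p = 0.0668) and 1.62 (SE 0.92, adjusted p = 0.173). In Control Kcnh4 stood at 28.6, 7.09 and 35 CPM, with 13.6, 0.964 and 1.97 CPM in PBS, and at 10.2, 46.1 and 29 CPM with ShK-223 and 8.08, 20.5 and 22.7 CPM with PAP-1. Kcnh4 was highest in ShK-223 2, Control 3, ShK-223 3 and Control 1, the 4 libraries with the highest sums of striatum markers (1500, 1660, 763 and 2180 CPM). Kcnh7 (Kv11.3, Erg3) rose as well. Control libraries held 134, 50.6 and 145 CPM of Kcnh7 and PBS libraries 51, 21.6 and 27.6 CPM, against 85.5, 206 and 199 CPM with ShK-223 and 43.4, 148 and 115 CPM with PAP-1. The log2 fold change was 2.29 (SE 0.57, adjusted p = 0.0124) with ShK-223, lost without PBS 2 (adjusted p = 0.0516), and 1.61 (SE 0.55, adjusted p = 0.0375) with PAP-1. PAP-1 1 lay below PBS 1, and that call was lost without PBS 2, PBS 3, PAP-1 2 or PAP-1 3 (adjusted p up to 0.126).

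Kcnh5 (Kv10.2, Eag2) also rose with both. The levels of Kcnh5 were 27.2, 10.5 and 18.7 CPM in Control, 6.06, 6.2 and 4.37 CPM in PBS, 19.1, 34.1 and 33.8 CPM with ShK-223 and 6.18, 23.6 and 15.3 CPM with PAP-1. With ShK-223 it rose by 2.39 (SE 0.48, adjusted p = 0.00768) and was called in every fit without 1 library. With PAP-1 the value was 1.44 (SE 0.48, adjusted p = 0.0327), PAP-1 1 lay among the PBS libraries, and only the fit without PAP-1 1 kept the call (adjusted p up to 0.135). Kcnh6 (Kv11.2) rose by 1.34 (SE 0.29, adjusted p = 0.00856) and 1.56 (SE 0.29, adjusted p = 0.00405) at a low level, 5.38, 3.2 and 7.17 CPM in Control, 2.14, 2.55 and 2.03 CPM in PBS and 4.42 to 7.29 CPM in the blocker groups. Kcnh1 (Kv10.1, Eag1) rose with ShK-223 (0.53, SE 0.14, adjusted p = 0.0151) and had 0.14 (SE 0.14, adjusted p = 0.424) with PAP-1, the former lost without PBS 2, PBS 3 or ShK-223 3 (adjusted p up to 0.0588). Kcnh2 (Kv11.1, Erg1), the channel best known from heart repolarization, was the Kcnh gene that fell. In Control Kcnh2 stood at 38, 60.9 and 41.3 CPM, with 53.5, 73.5 and 76.4 CPM in PBS, and at 45.4, 45.1 and 46.5 CPM with ShK-223 and 51.7, 42.7 and 41.8 CPM with PAP-1. It gave -0.57 (SE 0.18, adjusted p = 0.0329) and -0.58 (SE 0.18, adjusted p = 0.0284). Of the fits without 1 library only that without PBS 1 kept the ShK-223 call, and those without PBS 1 or PAP-1 1 the PAP-1 call (adjusted p up to 0.107 and 0.0946). Kcnh8 (Kv12.1), at 0.214 to 1.41 CPM, did not pass in any comparison.

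PBS was compared with Control, which the labels do not tell apart beyond their names. Of the 32 channel genes, 7 were lower in PBS and 0 were higher, where 5.02% of all genes passed (0.412% higher and 4.61% lower). Kcnc2 (-1.51, SE 0.29, adjusted p = 0.0380), Kcnh6 (-1.23, SE 0.29, adjusted p = 0.0443), Kcnb2 (-1.01, SE 0.19, adjusted p = 0.0377) and Kcnh1 (-0.57, SE 0.14, adjusted p = 0.0456) had every PBS library below every Control library. For Kcnh1 that was 102, 82.7 and 75 CPM in PBS against 144, 109 and 135 CPM in Control. Kcns2 (-1.61, SE 0.39, adjusted p = 0.0455) overlapped because Control 2 lay under PBS 1. The median log2 fold change of the 32 was -1.05, against 0.01 over all genes. An unadjusted p under 0.05 was found for 23 of 32, where 5121 of all 15061 genes had one. Control 2 stood apart from the other Control libraries. It lay outside the span of Control 1 and 3 for 31 of 32 genes, above it for 10 and below it for 21. On the log2 scale it lay nearer to the PBS mean than to the mean of the other Control libraries for 24 of 32. The same counts were not made over all genes, so they describe Control 2 and show nothing particular to the channels. For Kcng4, Control 1 and 3 held 7.52 and 10.4 CPM and Control 2 held 126.5 CPM, 3.82 above them on the log2 scale and 0.17 below PBS. The cerebellum markers of Control 2 summed to 10000 CPM against 1120 and 1210 CPM in Control 1 and 3.

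Without Control 2, 28 of 32 genes passed, 9 higher and 19 lower in PBS, where 43.9% of all genes passed. The log2 difference of Kcnc1 grew from 1.05 to 1.88 (SE 0.15, edgeR adjusted p = 4.15e-05) and that of Kcng4 from 1.57 to 3.99 (SE 0.47, adjusted p = 0.000233). Kcnq5, Kcnv1 at -2.73 (SE 0.78) and Kcnf1 at -2.56 (SE 0.72) were the lowest. Kcnd3, which did not pass against either blocker, was higher in PBS by 0.95 (SE 0.15, adjusted p = 0.000866), and Kcnc4 by 0.47 (SE 0.15, adjusted p = 0.0283). Without Control 1, Control 3, PBS 2 or PBS 3, 0 of 32 passed, where at most 0.00654% of all genes did. Without PBS 1, 12 passed, where 5.97% of all genes did. With cerebellar content or batch as a term, or with the PBS and Control libraries fitted alone, 0 of 32 passed. In these fits at most 0.0133% of all genes passed.

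**Figure D5:**
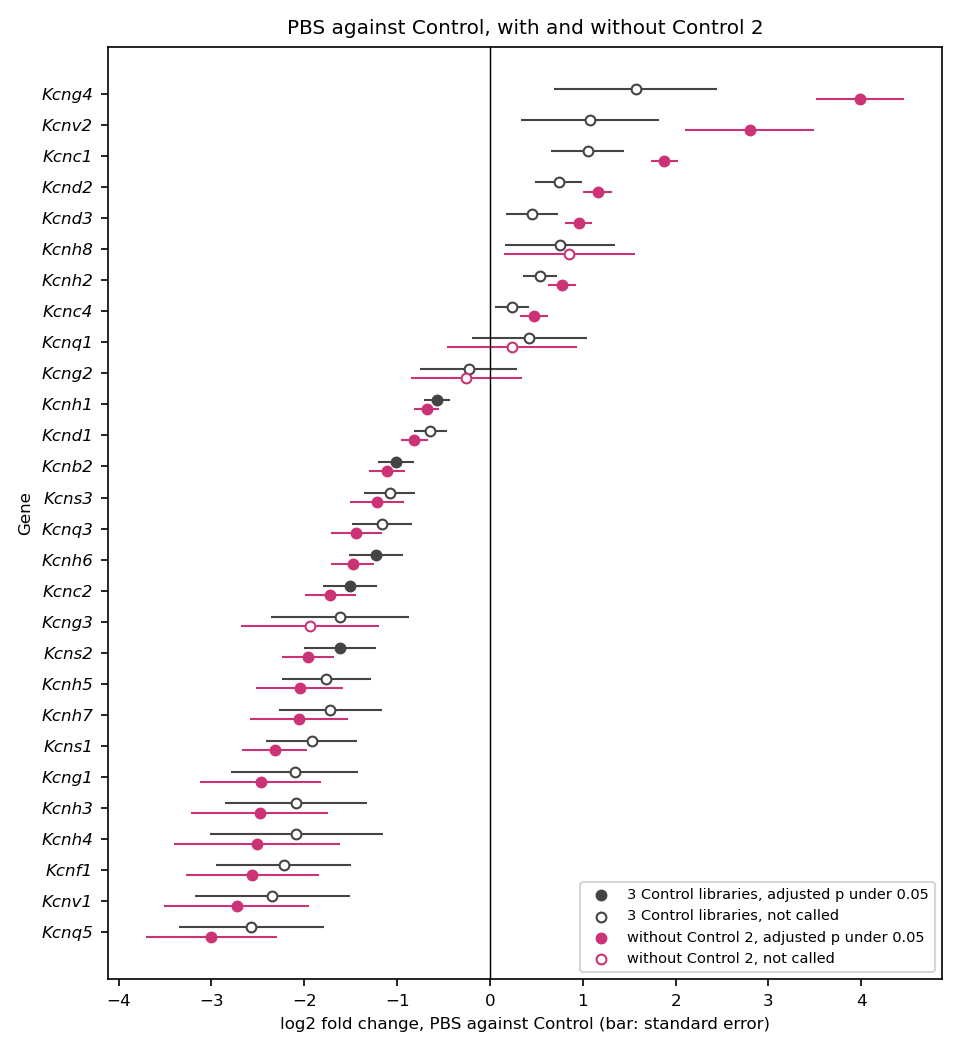
log2 fold change of each of 28 channel genes between PBS and Control with all 3 Control libraries (grey) and without Control 2 (pink), with standard errors as bars. Filled points passed at an adjusted p of 0.05, 5 with Control 2 and 24 without it, and Kcng4 and Kcnc1 lie farther from 0 without it.

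Each blocker was also compared with Control, a contrast that does not use the PBS levels. The PBS libraries still entered the scaling and the shared estimate of spread in the edgeR fit. None of the 32 genes passed in either comparison by edgeR or by DESeq2, and by edgeR 0% of all genes passed (10 genes with ShK-223 and 383 with PAP-1 by DESeq2). Unadjusted p-values under 0.05 were found for 6 of 32 genes (1027 of 15061) with ShK-223 and 8 of 32 (2290 of 15061) with PAP-1. The median log2 fold change was 0.28 with ShK-223 and 0.06 with PAP-1, against -0.02 and -0.03 over all genes. Among these, Kcnb2, with Control values of 23.5, 19.2 and 25 CPM, was higher in every ShK-223 (38.8, 35 and 41.6 CPM) and PAP-1 library (25.6, 45.4 and 33.5 CPM). Its log2 fold change was 0.77 (SE 0.18, adjusted p = 0.722) and 0.62 (SE 0.18, adjusted p = 0.220). Kcng1 had 1.84 (SE 0.64, adjusted p = 0.253) with PAP-1, again with every PAP-1 library above Control, and 1.07 (SE 0.63, adjusted p = 0.742) with ShK-223. Kcng4 (-2.13, SE 0.91, and -2.28, SE 0.92) and Kcnd2 (-0.57, SE 0.25, and -0.77, SE 0.25) were lower on average, Control 2 being the highest Control library for both.

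Control 2 and PAP-1 1 were then left out together, which leaves Control and PAP-1 with 2 libraries each and no library above 1300 CPM of cerebellum markers in these comparisons. Again 0 of 32 genes passed by edgeR, where 0 of 15213 genes passed with ShK-223 and 5 with PAP-1. An unadjusted p under 0.05 was found for 5 of 32 with ShK-223 (1117 of 15213 genes) and 7 of 32 with PAP-1 (2391 of 15213). With PAP-1, Kcng2 (1.75, SE 0.34, edgeR adjusted p = 0.0833), Kcnc4 (0.80, SE 0.16, 0.0854), Kcnd3 (0.80, SE 0.16, 0.0885) and Kcnb2 (0.70, SE 0.15, 0.0886) came nearest to the threshold. Kcnh1 was at -0.59 (SE 0.15, adjusted p = 0.132). With ShK-223 the smallest adjusted p was that of Kcnb2 (0.67, SE 0.13, adjusted p = 0.504). Kcnc1, at 218 and 230 CPM in Control 1 and 3, stood at 224 to 293 CPM with ShK-223 and at 239.7 and 245 CPM in PAP-1 2 and 3.

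The peptide and the small molecule were compared directly, in 32 tests adjusted over all 15061 genes. None of the 32 genes passed by edgeR (smallest adjusted p 0.984) or DESeq2, 0% of all genes passed by edgeR and 5 genes by DESeq2, and 2 of 32 had an unadjusted p under 0.05, where 684 of 15061 did. Doses are not given, so these are not matched doses. Kcnh1 was at 111, 131 and 134 CPM with ShK-223 and 102, 92.7 and 92.1 CPM with PAP-1 (log2 difference 0.39, 95% interval 0.08 to 0.70). Kcnv2 was lower with ShK-223 (-2.91, 95% interval -5.41 to -0.42) at 0 to 1 count a library. For Kcnb2 the interval ran from -0.26 to 0.55 and for Kcnc1 from -0.85 to 0.87. Wider intervals, for Kcng1 from -2.13 to 0.60 and for Kcnq5 from -1.03 to 2.20, leave room for large differences, in one direction for Kcng1 and in both for Kcnq5. For Kcng2 it ran from -1.36 to 0.78 and for Kcng3 from -1.75 to 1.17.

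Partner proteins of these channels were counted from a list of 17 genes, of which 15 were tested. With ShK-223 against PBS 4 rose and 3 fell, and with PAP-1 3 rose and 3 fell, shares near the 39.1% and 43.7% of all genes that passed. Akap5, which anchors signalling enzymes at Kv7 channels, passed in all 3 of the comparisons with PBS. Control libraries held 233, 67.3 and 224 CPM of Akap5 and PBS libraries 60.5, 15.6 and 16.5 CPM, against 142, 195 and 193 CPM with ShK-223 and 124, 171 and 186 CPM with PAP-1. It rose by 2.52 (SE 0.58, adjusted p = 0.0100) with ShK-223 and 2.38 (SE 0.57, adjusted p = 0.00996) with PAP-1, and the difference between PBS and Control was -2.50 (SE 0.58, adjusted p = 0.0425). Kcnip2 (KChIP2), a Kv4 partner, rose with ShK-223 by 2.92 (SE 0.94, adjusted p = 0.0325), from 51.6, 9.98 and 9.29 CPM in PBS to 65.9, 254 and 216 CPM. With PAP-1 Kcnip2 had 2.46 (SE 0.92, edgeR adjusted p = 0.0516) and did not pass. Kcnip1 (log2 fold change -0.96 with ShK-223 and -1.19 with PAP-1) and Kcnip4 (-0.92 and -0.77), 2 other KChIP genes, fell with both. Dpp6, an auxiliary subunit of Kv4, fell with ShK-223 (-0.67, SE 0.18) and had -0.44 (SE 0.18, edgeR adjusted p = 0.0695) with PAP-1. The calmodulin gene Calm3 (0.51 and 0.54), whose product binds Kv7 channels, rose with both. Ank3, which anchors Kv7 channels at the axon initial segment, fell with PAP-1 (-0.53, SE 0.13). With ShK-223 Ank3 had -0.25 (SE 0.13, edgeR adjusted p = 0.146).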

How the data were processed

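Whole-brain RNA of 12 mice was sequenced, and the authors deposited 1 table of raw read counts per gene name. STAR 2.7.11a, the build GRCm38, R 4.3.2 and DESeq2 1.40.2 are named per the submitters' processing notes. The sources used here do not give the counting tool, strand setting or annotation release, so reads of antisense genes may be among the counts. Libraries held 14364013 to 19048551 counts. Each library is 1 mouse, grouped by the treatment label. No library was a copy of another (lowest chi-square per gene between any pair 7.07).

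Counts were tested in R 4.3.3 with edgeR 4.0.16 (quasi-likelihood F test, TMM scaling, filterByExpr, 1 group term over 12 libraries), with Benjamini-Hochberg adjustment over all 15061 genes of a comparison and a threshold of 0.05. Alternatives were RLE scaling, DESeq2 1.42.0 without independent filtering, no filter on low counts, batch as a term, the cerebellar index (from 8 cerebellum genes) as a term, leaving out Control 2 with PAP-1 1, the compared groups alone, and each library left out in turn. CPM per kb used GENCODE exon lengths on GRCm38, and coordinates are of that build. Promoter sequences are from RefSeq. The members and gene lists were chosen with earlier results of these data known. Genes given with a value in every library were the called members whose groups did not overlap, up to 8 per direction and comparison by fold, and some others chosen after their values were seen. Some members are counted in the totals but not reported here by name. In simulated counts for ShK-223 against PBS (14914 genes), edgeR recovered 99% of 4-fold and 88% of 2-fold changes with 10 false calls. Adding the cerebellar index lowered these shares to 73% and 6%. The simulation gave every gene the same spread between libraries and no regional difference between them. In the data the spread differed by gene, with a median SE of 0.442 for the 32 channels with ShK-223 against PBS. The simulated shares are therefore not the recovery to be had in these data.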

Additional observations from a re-analysis of the deposited data

How the results depend on the processing

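RLE scaling and the absence of a low-count filter left the counts of called channel genes within 1 of those reported in every comparison. For ShK-223 against PBS, 0 of 32 passed with batch or with the cerebellar index as a term, where 0.0266% and 0% of all genes did. Between 17 and 26 passed when 1 library was left out, where 20.6% to 31.7% of all genes did. For PAP-1 against PBS, 8 passed with batch and 0 with the index as a term, where 18.3% and 0% of all genes did. Between 15 and 24 passed without 1 library, where 25.7% to 37.6% of all genes did. For PBS against Control, 21 passed by DESeq2, where 20% of all genes did. With batch or the index as a term 0 passed (0.0133% and 0% of all genes), and 0 with the compared groups alone (0%). Without Control 2 and PAP-1 1, 28 passed (47.8% of all genes), and between 0 and 28 without 1 library (0% to 43.9%). The other 3 comparisons gave 0 called channel genes under each of these alternatives, where at most 2.56% of all genes passed. Calls held in every fit without 1 library for 15 of 24 genes with ShK-223, 15 of 25 with PAP-1 and 0 of 7 between PBS and Control. The same count was not made over all called genes, so it shows nothing particular to the channels. With batch as a term the 24 genes called with ShK-223 kept their direction. Errors were wider for Kcnb2 (1.84, SE 0.21, from 1.78, SE 0.19), Kcns3 (1.73, SE 0.32, from 1.72, SE 0.28) and Kcnq3 (1.66, SE 0.43, from 1.74, SE 0.33). They were narrower for Kcnh6 (0.97, SE 0.249, from 1.34, SE 0.287) and Kcnd2 (-1.07, SE 0.25, from -1.32, SE 0.255). With the cerebellar index as a term, 17 genes called with ShK-223 and 13 called with PAP-1 kept their direction below the threshold, among them Kcnb2 (1.27 and 1.15), Kcnc2 (1.21, SE 0.45, and 1.01, SE 0.44), Kcns3 (1.16, SE 0.52, and 0.95, SE 0.50) and Kcng1 (1.02, SE 1.06, and 1.90, SE 1.01). In that fit the log2 fold change with ShK-223 reversed to -0.18 (SE 0.99) for Kcnq5, -0.051 (SE 1.09) for Kcnh3, 0.27 (SE 0.21) for Kcnh2, 0.88 (SE 0.53) for Kcng4, -0.16 (SE 0.46) for Kcns2 and 0.40 (SE 0.20) for Kcnc1. With PAP-1 it reversed to -0.65 (SE 0.97) for Kcnq5, -0.082 (SE 0.76) for Kcnh5, -0.14 (SE 1.05) for Kcnh3, 0.21 (SE 0.20) for Kcnh2, -0.18 (SE 0.56) for Kcns1, 0.35 (SE 0.51) for Kcng4, -0.30 (SE 0.44) for Kcns2, -0.035 (SE 0.39) for Kcnq3, 0.27 (SE 0.19) for Kcnc1 and -0.44 (SE 0.78) for Kcnh7. The index was 0.826 to 0.979 in PBS and 0.00814 to 0.16 in the blocker groups, with no overlap. Blocker and cerebellar content therefore cannot be told apart in the comparisons with PBS. The simulated recovery given with the processing was also low, and the cause was not tested. No paired analysis was possible because replicate numbers follow accession order and the labels give none.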

Other observations

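ShK-223 1 and PAP-1 1 stood apart from their group mates in some of the same genes, which was seen in the values and has no test. Kcnip3 was at 275 and 318 CPM in these libraries and at 113 to 158.5 CPM in the other 10. Kcnq1 was at 2.46 and 4.27 CPM, and at 0.448 to 2.25 CPM in the other 10. Kcnq5, Kcnh4, Kcnh5 and Kcnh7 were lower in both than in libraries 2 and 3 of their group. For Kcnh7 that was 85.5 CPM against 206 and 199 CPM with ShK-223, and 43.4 CPM against 148 and 115 CPM with PAP-1. Their batches differ.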
